A study of Saccharomyces cerevisiae with 8 samples.

Results

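Newly made RNA was measured over the longest transcripts of budding yeast, those annotated by the authors with a length of 3500 bases or more. The rule is a length threshold on the deposited transcript annotation and uses no measured value. It took 147 of 4928 features, or 2.98%, and all 147 passed the filter on low counts, so each of them was tested. Their lengths ran from 3501 to 4982 bases with a median of 3821, against a median of 1397 for the 4781 remaining features. No feature of 5000 bases or more is in the table, although RefSeq holds 124 protein-coding genes of that length in the same assembly, R64 (sacCer3). The set is therefore a band of lengths, and genes longer than that band were not analysed here.

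All libraries came from a haploid strain of mating type alpha whose chromosomal SRB10 gene is deleted. The deleted kinase subunit of Mediator is replaced by srb10as-1, carried on a centromeric TRP1 plasmid, a form of the kinase sensitive to the bulky ATP analogue 1-NA-PP1. The same strain lacks ADE2, HIS3, LEU2, LYS2, MET15, the chromosomal TRP1 and URA3, and the plasmid allele is the sole source of the kinase in every group. Cultures in YPD-Trp at 30 °C grew from an OD600 of 0.1 to 0.8 and then received 6 µM 1-NA-PP1 or DMSO for 12 minutes. The 4 groups of 2 libraries were heat shock with 1-NA-PP1, heat shock with DMSO, steady state with 1-NA-PP1 and steady state with DMSO. Heat shock was 12 minutes at 37 °C, and steady state cultures had none. All received 5 mM 4-thiouridine for 5 minutes, so that RNA made in that time could be isolated (4tU-seq). No group carries wild-type SRB10, and the labels do not say that replicates were separate cultures. The p-values therefore measure the spread between these libraries, which may be technical.

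Long genes pose a particular task for transcription. A polymerase takes longer to cross one than to cross a short gene, so some of the RNA labelled in a short time carries label over part of its length. In yeast such genes encode large multidomain proteins: molecular motors, SMC proteins that fold and hold chromosomes, ABC transporters, nuclear transport receptors, vesicle coats, ubiquitin ligases and the largest subunits of the RNA polymerases. Srb10 (Cdk8) is the kinase of the Mediator module that modulates RNA polymerase II initiation and phosphorylates transcription factors such as Gcn4.

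Long transcripts that fell under heat shock included genes of chromosome cohesion and replication, and their upstream sequences are shown because several hold the MluI cell cycle box, ACGCGT, the element bound by the G1/S factor MBF. The windows are the 200 bases before the annotated transcript start, read from the R64 assembly on the strand of the gene. They hold no base of the gene's own annotated transcript, and overlap with neighbouring transcripts was not checked. Capitals mark each box, and since ACGCGT is its own reverse complement it lies on both strands. The cohesin genes come first. PDS5 (a cohesin regulator, chrXIII:420120-420319, minus strand) holds a box 72 bases before the start, SMC3 (chrX:302873-303072, minus strand) holds it 88 bases before, IRR1 (the Scc3 subunit, chrIX:307985-308184, minus strand) has it 74 and 67 bases before, and SMC1 (chrVI:119188-119387, plus strand) holds it 75 bases before.
PDS5: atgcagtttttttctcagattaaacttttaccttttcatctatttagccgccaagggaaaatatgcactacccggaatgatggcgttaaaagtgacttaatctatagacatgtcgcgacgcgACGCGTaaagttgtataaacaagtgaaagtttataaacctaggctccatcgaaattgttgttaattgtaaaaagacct
SMC3: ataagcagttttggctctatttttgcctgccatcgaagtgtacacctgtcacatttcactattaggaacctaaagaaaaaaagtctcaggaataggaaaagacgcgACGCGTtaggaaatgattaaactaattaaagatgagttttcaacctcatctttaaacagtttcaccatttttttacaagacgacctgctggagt
IRR1: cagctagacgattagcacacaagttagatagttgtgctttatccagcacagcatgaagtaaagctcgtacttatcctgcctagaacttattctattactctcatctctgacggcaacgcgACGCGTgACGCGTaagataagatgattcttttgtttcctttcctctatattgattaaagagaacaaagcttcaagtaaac
SMC1: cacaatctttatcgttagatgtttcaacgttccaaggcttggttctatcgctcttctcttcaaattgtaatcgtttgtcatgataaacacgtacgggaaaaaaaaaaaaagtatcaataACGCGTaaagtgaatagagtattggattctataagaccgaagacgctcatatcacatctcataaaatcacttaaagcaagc

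MSH6, a mismatch repair gene, and TOF1 and MRC1, whose proteins travel with the replication fork and carry the checkpoint signal, hold 2 boxes each. They lie 97 and 77 bases before the start of MSH6 (chrIV:643931-644130, minus strand), 100 and 81 bases before that of TOF1 (chrXIV:122634-122833, plus strand), and 72 and 43 bases before that of MRC1 (chrIII:22173-22372, minus strand). Among other members with the largest falls, GIN4 holds a box, whereas SRS2, YCS4, HSL1, MSB1 and SCP160 hold none in the 300 bases upstream.
MSH6: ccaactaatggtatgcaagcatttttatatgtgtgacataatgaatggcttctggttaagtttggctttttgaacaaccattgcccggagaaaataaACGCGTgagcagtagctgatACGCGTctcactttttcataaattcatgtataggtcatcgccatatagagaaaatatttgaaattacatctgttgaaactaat
TOF1: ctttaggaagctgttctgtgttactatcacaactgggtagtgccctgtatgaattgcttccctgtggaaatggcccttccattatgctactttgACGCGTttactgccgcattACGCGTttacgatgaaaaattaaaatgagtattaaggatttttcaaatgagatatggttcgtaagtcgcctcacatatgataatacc
MRC1: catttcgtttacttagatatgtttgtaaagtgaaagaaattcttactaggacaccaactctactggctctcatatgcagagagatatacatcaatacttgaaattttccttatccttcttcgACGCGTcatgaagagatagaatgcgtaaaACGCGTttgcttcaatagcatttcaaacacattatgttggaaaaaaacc

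Of the members with the largest rises under heat shock, MHP1, NCR1 and UFD4 are shown as examples that hold the stress element AGGGG, which the general stress factors Msn2 and Msn4 bind, written CCCCT where it lies on the other strand. MHP1 (chrX:360941-361140, plus strand) holds it 147 bases before the start, and 83 bases before it the letters GAANNTTC of the heat shock element bound by Hsf1, also in capitals. NCR1 (chrXVI:544383-544582, plus strand) holds the stress element 79 bases before the start and UFD4 (chrXI:425980-426179, minus strand) 30 bases before it. ASK10 holds it too, whereas PYC1, which rose most, YOR1, KRE5 and PIM1 do not hold it in the 300 bases upstream.
MHP1: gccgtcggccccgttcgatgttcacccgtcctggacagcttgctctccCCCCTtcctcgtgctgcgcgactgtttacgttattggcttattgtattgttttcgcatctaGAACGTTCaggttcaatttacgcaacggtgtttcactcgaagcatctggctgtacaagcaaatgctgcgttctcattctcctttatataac
NCR1: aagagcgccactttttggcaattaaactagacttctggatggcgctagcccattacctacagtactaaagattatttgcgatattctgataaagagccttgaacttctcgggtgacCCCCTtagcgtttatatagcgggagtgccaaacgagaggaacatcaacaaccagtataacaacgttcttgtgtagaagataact
UFD4: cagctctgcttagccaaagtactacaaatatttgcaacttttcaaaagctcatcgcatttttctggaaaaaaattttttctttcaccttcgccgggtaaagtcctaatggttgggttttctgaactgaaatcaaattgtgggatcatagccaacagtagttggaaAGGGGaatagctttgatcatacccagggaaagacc

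Over the 300 bases before the start, searched on both strands, 17 of 147 members (11.6%) hold ACGCGT, against 3.94% of all 4928 windows. This motif was added after the falling members had been seen, so its share is a description. AGGGG is in 29.9% of members and 23.0% of all windows, GAANNTTC in 12.9% and 12.8%, the TATA box TATAAA in 42.2% and 46.3%, and GATGAG (the PAC element of ribosome assembly genes) in 23.8% and 20.8%. TGACTC, bound by Gcn4, is in 8.16% and 8.48%. CCGCGG, bound by Pdr1 and Pdr3, is in 0 of 147 members and in 2.13% of all windows. The motifs do not overlap one another in their letters. A match describes letters and not a bound site.

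Of the 147 members, 146 matched a RefSeq gene by systematic name, and each of the 146 contains its whole gene. In 90 of them the RefSeq gene itself is at least 3500 bases long, and 56 pass the threshold through the transcribed stretches on either side of a shorter coding part. The stretch before the gene had a median of 94 bases in members and 46 in the remaining features, and the stretch after it a median of 122.5 and 119. RGA1, a GTPase-activating protein of the polarity GTPase Cdc42, has 1241 bases before its gene, TRK2, a potassium transporter, 949, KSP1, a protein kinase of nutrient signalling, 846, ALR2, a magnesium transporter, 779 and ATG1, the kinase that starts autophagy, 563. The members lie on all 16 chromosomes, from 2 on chromosome III to 16 on chromosome IV, with 73 on the plus and 74 on the minus strand. Their median GC content was 37.9%, against 38.4% in the remaining features. A feature on the opposite strand overlaps 38 members (25.9%) and 34.4% of the remaining features. The strand of counting is not given in the sources used here, so reads in the shared stretch of such pairs cannot be told apart, and these members are marked below as overlapped. The largest shared stretches were 2093 bases in YDR048C, 779 in RGA1 and 382 in TRK2. Those of PDS5, HSL1 and RPA135 were 93, 76 and 1. PYC1 and PYC2, whose sequences are close, have 8.2% and 8.0% of their stretches of 50 bases elsewhere in the genome, and reads there could be split between them. All other members have under 5%.

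Just inside the threshold lie NUP116, a nuclear pore protein gene, at 3501 bases, MIL1 at 3503 and the leucyl-tRNA synthetase gene CDC60 at 3506. Just outside it are SMC6 at 3498, DSE4 at 3497, PSE1 at 3491 and CAF120 at 3487. The longest members are YDR048C at 4982 bases, which has no entry in the RefSeq table, and then MYO2 at 4978, TCB3 at 4971, HSL1 at 4873, BPT1 at 4863, ARO1 at 4859, YOR1 at 4814 and MYO4 at 4728. YDR048C is overlapped and stood apart from all other members: it had 1.83 to 3.23 CPM (counts scaled to library size) in the 8 libraries, while every other member had over 10 CPM per kilobase in each group.

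Libraries held 17137998 and 17413120 counts for heat shock with 1-NA-PP1, 17743527 and 14680275 for heat shock with DMSO, 65134744 and 61566972 for steady state with 1-NA-PP1 and 64682858 and 60372371 for steady state with DMSO. The median member had 7169 to 8603 counts in heat shock libraries and 29929 to 33303 in steady state libraries. Between replicates the median absolute log2 difference of members was 0.07, 0.09, 0.10 and 0.05 in the same order of groups, against 0.09, 0.13, 0.13 and 0.06 in the remaining features. In several genes named below, replicate 2 of steady state with 1-NA-PP1 had the lowest or highest value of the 8 libraries. For some of these genes, but not all, log2 changes are given with and without it. As the genotype states, ADE2, LEU2, URA3 and MET17 (the gene of met15) had 0 counts in every library, and the alpha pheromone gene MF(ALPHA)1 had 6536 to 200728 counts where the a pheromone gene MFA1 had 0 to 12.

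Long transcripts took a somewhat larger share of the counts than of the bases. They cover 7.45% of the bases of all features and took 9.23% and 9.47% of the counts under heat shock with 1-NA-PP1, 9.04% and 9.01% under heat shock with DMSO, 8.64% and 8.77% at steady state with 1-NA-PP1 and 8.39% and 8.16% at steady state with DMSO. All heat shock libraries lay above all steady state libraries. Per length, the median member had 133.4 and 133.2 CPM per kilobase under heat shock with 1-NA-PP1, 129.9 and 134 with DMSO, 123 and 119.7 at steady state with 1-NA-PP1 and 119 and 116 with DMSO. The median remaining feature had 67.1 to 68.1 CPM per kilobase in the heat shock libraries and 69.8 to 72.5 in the steady state libraries. Across features, which share these libraries and are not replicates, the Spearman correlation of length with CPM per kilobase was 0.26 over all 4901 tested and 0.00 within the 147 members.

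The most abundant members per length were YCF1, SEC31, MSB2, JSN1 and YOR1. YCF1, which moves glutathione conjugates and cadmium into the vacuole, averaged 585 CPM per kilobase under heat shock with 1-NA-PP1, 696 under heat shock with DMSO, 433 at steady state with 1-NA-PP1 and 501 at steady state with DMSO. SEC31, a coat subunit of vesicles that leave the endoplasmic reticulum, averaged 541, 538, 417 and 383 CPM per kilobase in the same order. MSB2, an osmosensing mucin that is overlapped, averaged 459, 402, 450.0 and 409, and JSN1, an RNA-binding protein of the Puf family, 486, 465, 353 and 301. After YDR048C, the lowest members were PCA1, a copper and cadmium transporter of the P-type ATPases, at a mean of 18.6 CPM per kilobase over all libraries, SSK22, an osmosensing kinase, at 20.3 and SCC2, the loader of cohesin, at 34.7.

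Relative to the bulk of features, more long transcripts rose than fell under heat shock. With 1-NA-PP1, 96 of 147 members were called (edgeR, adjusted p under 0.05), 76 higher and 20 lower, against 53.4% called, 25.3% higher and 28.1% lower over all 4901 features tested. With DMSO, 101 of 147 members were called, 79 higher and 22 lower, where the shares over all features were 58.5% called, 29.6% higher and 28.9% lower. The share of members called higher was thus 51.7% and 53.7%, and that called lower 13.6% and 15.0%. Their median log2 change was 0.25 with 1-NA-PP1, against -0.02 over all features, and 0.22 with DMSO, against -0.01. Libraries of both conditions did not overlap for 129 members with 1-NA-PP1 and for 125 with DMSO, against 76.5% and 83.9% of all features.

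The arms share no library. In both, 68 members were called higher and 18 lower, 0 were called in opposite directions, 10 were called with 1-NA-PP1 and not with DMSO, 15 with DMSO and not with 1-NA-PP1, and 36 in neither. The sign was the same in 130 members. Across the 147 members, which are no replicates, the log2 changes of the arms had a Pearson correlation of 0.90, against 0.89 over all features.

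**Figure D1:**
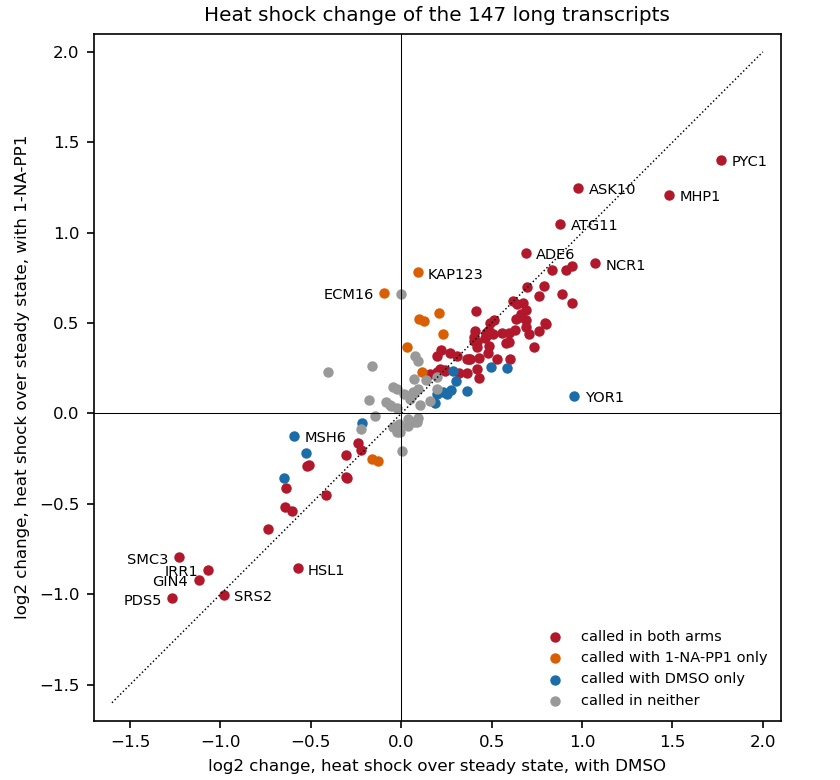
Log2 change under heat shock relative to steady state with 1-NA-PP1 (vertical) and with DMSO (horizontal) for the 147 long transcripts, coloured by whether edgeR called the change at an adjusted p under 0.05 in both arms, in 1 of them or in neither; the dotted line marks equal changes. Most points lie near that line, with PYC1 at 1.40 and 1.77 and PDS5 at -1.02 and -1.27 at the ends, and YOR1 at 0.10 and 0.96 off it.

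These counts depend on the reference set for no change. Scaling here takes the bulk of features as unchanged, and the change followed length over the whole table: the median log2 change was -0.29 with 1-NA-PP1 and -0.25 with DMSO in features under 1000 bases, 0.00 and 0.00 from 1000 up to 2000, 0.17 and 0.15 from 2000 up to 3500, 0.23 and 0.21 from 3500 up to 4000, and 0.29 and 0.23 from 4000 up to 5000. In the 17 members of at least 4500 bases the medians were 0.15 and 0.10. Across features, Spearman correlations of length with log2 change were 0.36 with 1-NA-PP1 and 0.27 with DMSO over all 4901, but -0.01 and -0.04 within the members. With ribosomal protein genes left out, which are short and were chosen for this after the data were seen, features under 1000 bases had medians of -0.28 and -0.21. An offset that follows length in each library leaves 36 members higher and 38 lower with 1-NA-PP1, against 2284 of 4901 features called, and 51 higher and 43 lower with DMSO, against 2731, with medians of 0.00 and -0.02. The factors behind the authors' normalised counts lower all features together, to a median of -0.63 with 1-NA-PP1 and -0.32 with DMSO. On that scale the members had medians of -0.37 and -0.08, and 0 were called higher and 13 lower with 1-NA-PP1, against 1411 of 4901 features called, and 2 higher and 6 lower with DMSO, against 626. These factors also set replicates further apart than edgeR's scaling. Relative to replicate 1 of steady state with DMSO, they were 0.95 and 1.46 at steady state with 1-NA-PP1 (edgeR 1.00 and 0.94). Under heat shock they were 0.36 and 0.51 with 1-NA-PP1 (edgeR 0.23 and 0.24) and 0.33 and 0.22 with DMSO (edgeR 0.24 and 0.20). What this did to the number of calls was not tested. Relative to the median of all features, members lay 0.27 higher with 1-NA-PP1 and 0.23 higher with DMSO under edgeR's scaling, and 0.26 and 0.24 higher under the authors' factors. The authors' deposited table gives 0 members higher and 10 lower at its adjusted p under 0.05 with 1-NA-PP1, against 56 higher and 886 lower of its 4928 features, and 21 higher and 29 lower with DMSO, against 437 higher and 2059 lower.

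**Figure D2:**
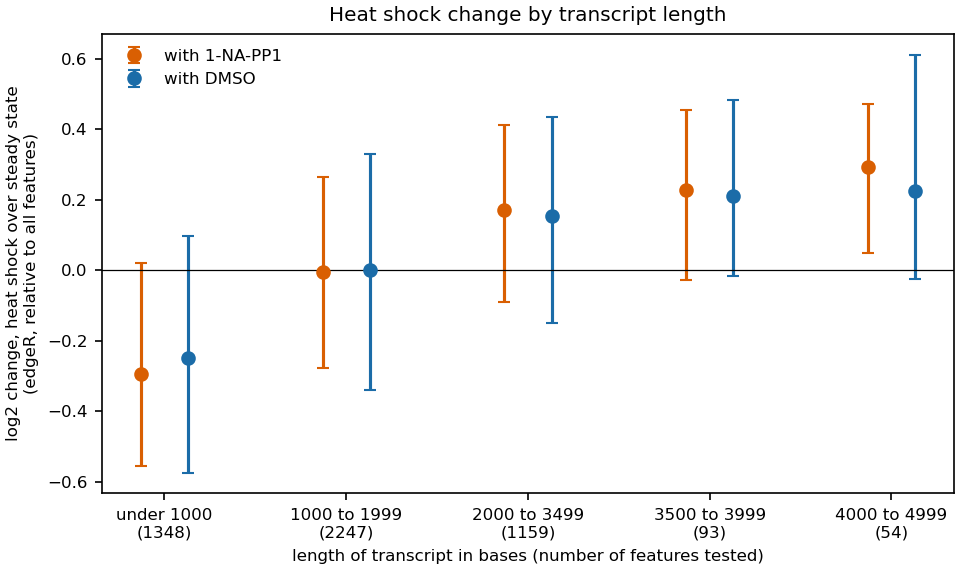
Median log2 change under heat shock relative to steady state (points; bars span the lower to the upper quartile of features) by length class, with 1-NA-PP1 and with DMSO. Medians climb from -0.29 and -0.25 in features under 1000 bases to 0.29 and 0.23 in features of 4000 bases and over, while the quartile ranges of neighbouring classes overlap.

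PYC1 rose most in both arms. This pyruvate carboxylase gene (transcript at chrVII:385155-388792, plus strand), which refills the citric acid cycle with oxaloacetate, had 1644 and 1819 CPM under heat shock with 1-NA-PP1, against 595 and 717 at steady state with it. With DMSO it had 1901 and 1816 CPM under heat shock and 557 and 535 at steady state. All 4 heat shock libraries lay above all 4 steady state libraries. The log2 changes were 1.40 (SE 0.101, edgeR adjusted p = 2.17e-05) and 1.77 (SE 0.102, adjusted p = 6.1e-06). MHP1, a microtubule-associated protein gene (chrX:361141-365600, plus strand), had 1831 and 1871 CPM under heat shock with 1-NA-PP1 against 766 and 834 at steady state, and 2032 and 1838 with DMSO against 751 and 633. Its log2 changes were 1.21 and 1.48 (SE 0.100 and 0.101).

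ASK10, a regulator of the glycerol channel Fps1 (chrVII:678646-682284, plus strand), had 1670.4 and 1714 CPM under heat shock with 1-NA-PP1 against 702 and 722 at steady state, and 1299 and 1379 CPM under heat shock with DMSO against 695 and 662. The log2 changes were 1.25 (SE 0.068) and 0.98 (SE 0.068), and the difference between them, 0.27 (SE 0.095), was not called (edgeR adjusted p = 0.357). NCR1, a vacuolar membrane protein related to human NPC1, had 215 and 229 CPM under heat shock with 1-NA-PP1 against 115 and 135, and 219 and 194 with DMSO against 100.0 and 96.7. UFD4, a ubiquitin ligase, rose by 0.82 with 1-NA-PP1 and 0.94 with DMSO on the log2 scale, KRE5, needed for glucan of the cell wall, by 0.79 and 0.91, and PIM1, the Lon protease of mitochondria, by 0.61 and 0.94. ATG11, an adaptor of selective autophagy that is overlapped, rose by 1.05 and 0.88, and ADE6, an enzyme of purine synthesis, by 0.89 and 0.69.

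**Figure D3:**
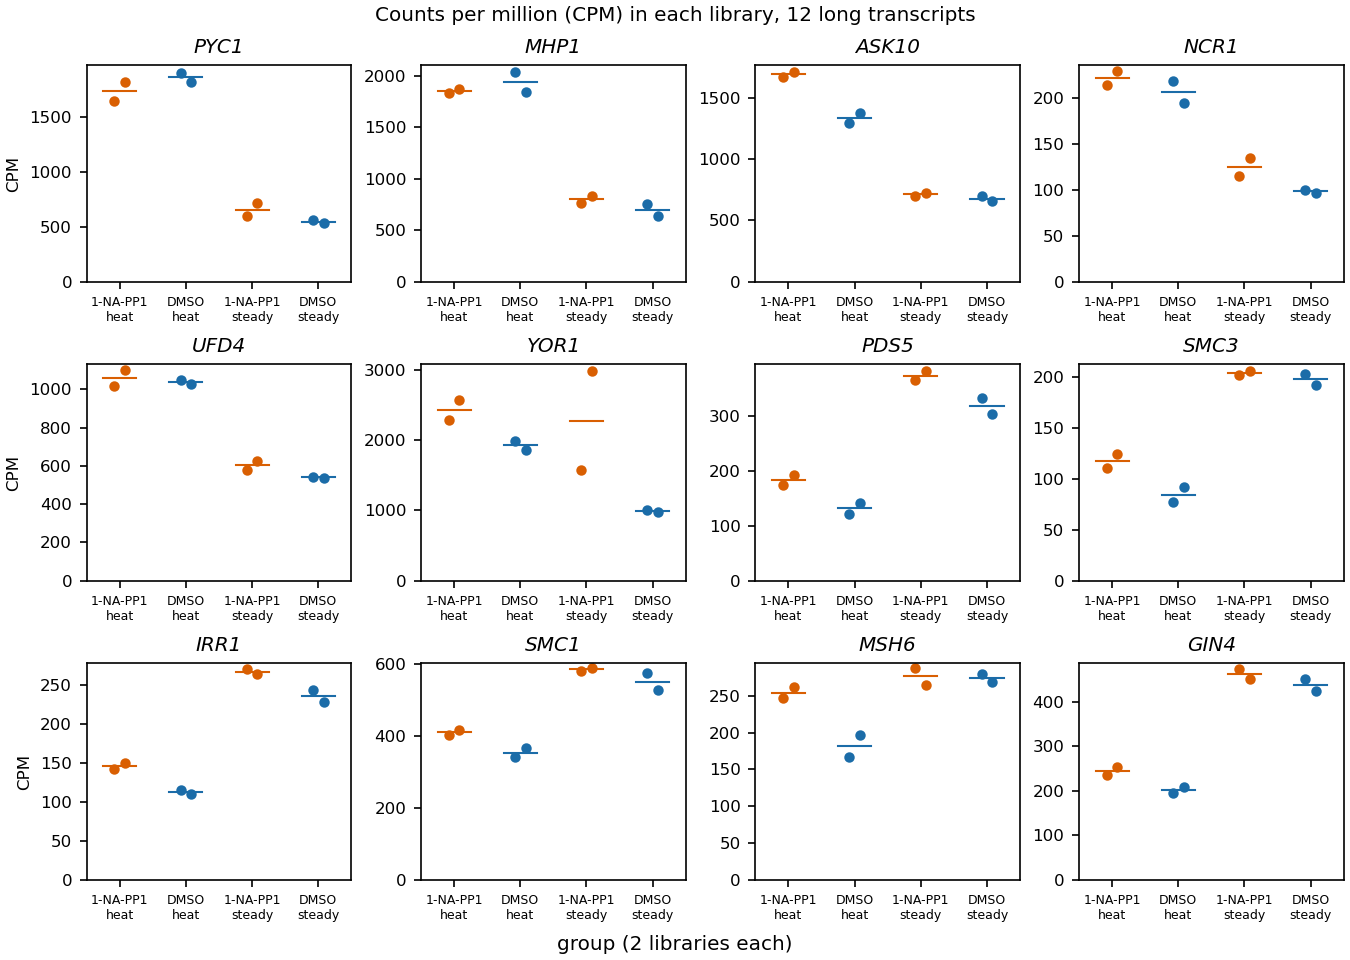
CPM (vertical, from 0) of 12 long transcripts in each of the 8 libraries; points are libraries, short lines the mean of 2, orange for 1-NA-PP1 and blue for DMSO. PYC1, MHP1, ASK10, NCR1 and UFD4 are higher in every heat shock library, PDS5, SMC3, IRR1, SMC1 and GIN4 lower in every one, and YOR1 has 1571 and 2979 CPM in the replicates of steady state with 1-NA-PP1.

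Cohesin genes were among the largest falls. PDS5 had 175 and 193 CPM under heat shock with 1-NA-PP1 against 365 and 382 at steady state, and 122 and 142 with DMSO against 332 and 305. Its log2 changes were -1.02 (SE 0.094, edgeR adjusted p = 7.55e-05) and -1.27 (SE 0.095, adjusted p = 2.36e-05), and it is overlapped. SMC3, a subunit of the cohesin ring, had 111 and 124 CPM under heat shock with 1-NA-PP1 against 201 and 206, and 77.3 and 91.5 with DMSO against 203 and 192. Its log2 changes were -0.80 (SE 0.097) and -1.23 (SE 0.099). IRR1 had 143 and 151 CPM under heat shock with 1-NA-PP1 against 271 and 265, and 115 and 111 with DMSO against 244 and 229, which gave -0.87 and -1.07. In these 3 genes every heat shock library lay below every steady state library.

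GIN4, a kinase that organises septins at the bud neck, had log2 changes of -0.92 with 1-NA-PP1 and -1.12 with DMSO, both called. HSL1, a bud-neck kinase that restrains the mitotic inhibitor Swe1 and is overlapped, had 816 and 903 CPM under heat shock with 1-NA-PP1 against 1457 and 1657, and 836 and 892 with DMSO against 1315 and 1257, with log2 changes of -0.86 and -0.57. SRS2, a DNA helicase of recombination control, fell by 1.00 on the log2 scale with 1-NA-PP1 and by 0.98 with DMSO, and YCS4, a condensin subunit, had changes of -0.64 and -0.74; both are overlapped. SMC1 had -0.52 and -0.64, MSB1, a gene of bud growth, -0.41 and -0.64, and SCP160, an RNA-binding protein of polysomes, -0.54 and -0.60. All were called in both arms.

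Lists of genes by role, chosen from general knowledge, hold 89 of the 147 members in 16 lists. The plot by role sets the long members of each list beside the shorter ones. In the list of DNA replication, repair and chromosome structure, 12 members were tested, of which 0 were called higher and 9 lower with 1-NA-PP1 and 0 higher and 10 lower with DMSO, with medians of -0.32 and -0.56. The 62 shorter members of that list had 10 called higher and 37 lower with 1-NA-PP1, 6 higher and 39 lower with DMSO, and medians of -0.34 and -0.38. With DMSO, the log2 change was -0.59 for MSH6, -0.52 for TOF1, -0.31 for MRC1 (overlapped), -0.31 for the condensin gene SMC4 and -0.22 for RAD5, a helicase and ubiquitin ligase of damage tolerance. SCC2 (overlapped) had 184 and 175 CPM under heat shock with 1-NA-PP1 against 166 and 165, and 151 and 159 with DMSO against 149 and 148, and was not called.

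**Figure D4:**
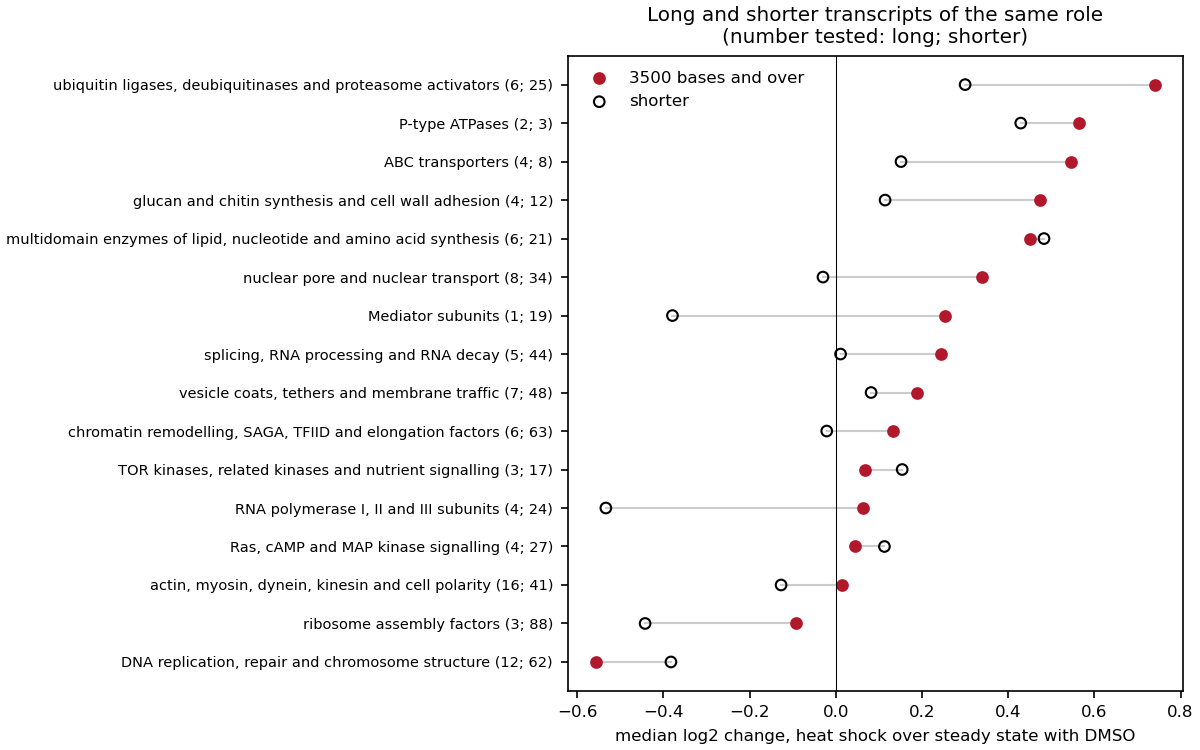
Median log2 change under heat shock relative to steady state with DMSO for each list of genes by role, filled for transcripts of 3500 bases and over and open for shorter ones; the numbers tested stand beside each list. Long members lie right of the shorter ones except in the lists of DNA replication, TOR, Ras and MAP kinase signalling and multidomain enzymes, and both medians are below 0 for DNA replication, repair and chromosome structure (-0.56 and -0.38) and for ribosome assembly factors (-0.09 and -0.44).

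Most long genes of protein turnover rose. Of 6 ubiquitin ligases and deubiquitinases, 5 were called higher and 0 lower with 1-NA-PP1 and 5 higher and 1 lower with DMSO, with medians of 0.48 and 0.74, against medians of 0.31 and 0.30 in the 25 shorter members. The deubiquitinase UBP15 had 1003 and 1102 CPM under heat shock with 1-NA-PP1 against 703 and 792, and 1107 and 979.7 with DMSO against 615 and 585. With DMSO its log2 change was 0.80, that of UBP2 0.79 and that of SSM4, a ligase of the endoplasmic reticulum membrane, 0.69. RAD5, the member called lower, is also on the list of DNA repair.

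Transport and cell surface genes rose in part. Of 8 nuclear pore and transport genes, 5 were called higher and 0 lower in each arm, with medians of 0.42 with 1-NA-PP1 and 0.34 with DMSO, against 0.08 and -0.03 in the 34 shorter ones. CRM1, the main nuclear exporter, had 953 and 984 CPM under heat shock with 1-NA-PP1 against 619 and 571, and 1027 and 980.2 with DMSO against 580.4 and 579, and MSN5, an exporter of phosphorylated proteins, rose by 0.60 with DMSO. The list of the ABC family held 4 long genes, with 2 called higher with 1-NA-PP1 and 3 with DMSO, against 3 and 2 of 8 shorter ones. Those called with DMSO were the transporter genes YOR1, by 0.96, BPT1, a bile pigment transporter of the vacuole, by 0.62 and YCF1 by 0.47. The other long gene on the list, NEW1, was not called with DMSO. Both P-type ATPases, PCA1 and SPF1, were called higher in both arms, by 0.47 and 0.66 with DMSO, as were 2 of 3 shorter ones in each arm. Of 4 cell wall genes, 2 were called higher with 1-NA-PP1 and 3 with DMSO, against 2 and 3 of 12 shorter ones. Those called with DMSO were KRE5 as above, the chitin synthase gene CHS1 by 0.66 and CHS3 (overlapped), which makes most of the cell's chitin, by 0.29.

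Motor and polarity genes split. Of 16 members, 6 were called higher and 6 lower with 1-NA-PP1 and 7 higher and 6 lower with DMSO, with medians of 0.01 and 0.01, against -0.16 and -0.13 in 41 shorter members. SLA1 and EDE1, of early endocytosis, rose by 0.69 and 0.56 with DMSO, while MYO2, the motor that carries secretory vesicles to the bud, fell by 0.42. Of 7 genes of vesicle coats, tethers and traffic, 3 were called higher with 1-NA-PP1 and 4 with DMSO and 0 lower, against 16 and 19 higher and 6 and 7 lower of 48 shorter ones, with SEC31 at 0.49 with DMSO. The mRNA decay and processing list had 4 of 5 called higher in each arm, against 13 and 11 of 44 shorter ones, with SKI2, a helicase of the exosome's Ski complex, at 0.64 with DMSO. For enzymes of lipid, nucleotide and amino acid synthesis, 4 of 6 were called higher in each arm and 0 lower, against 15 of 21 shorter ones higher in each arm; medians were 0.35 and 0.45, against 0.42 and 0.48. KGD1, of the citric acid cycle, rose by 0.48 with DMSO and ARO1, a multifunctional enzyme of aromatic amino acid synthesis, by 0.42. The 6 chromatin and elongation genes had 2 and 3 called higher, against 8 and 15 of 63 shorter ones, led by SPT6 (overlapped) at 0.38 with DMSO, and NUT1, of Mediator itself, rose by 0.25 with DMSO and was not called with 1-NA-PP1, while 11 and 10 of 19 shorter Mediator genes were called lower. Of 3 TOR and nutrient signalling genes 1 was called higher in each arm, NPR3, at 0.31 with DMSO, and of the 17 shorter ones 6 and 7. Of 4 Ras, cAMP and MAP kinase genes, 2 were called higher with 1-NA-PP1 and 0 with DMSO, against 6 and 9 of 27 shorter ones.

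RNA polymerase subunits were called unlike one another by length, a difference that was not tested. Of the 4 long polymerase subunits, 3 were called higher and 0 lower with 1-NA-PP1 and 1 higher and 0 lower with DMSO, with medians of 0.44 and 0.06, while the 24 shorter subunits had 0 higher and 11 lower with 1-NA-PP1, 0 higher and 17 lower with DMSO, and medians of -0.27 and -0.53. The 3 long ribosome assembly genes had 1 called higher with 1-NA-PP1 and 0 with DMSO, with medians of 0.29 and -0.09, and the 88 shorter ones 10 higher and 6 lower with 1-NA-PP1, 2 higher and 37 lower with DMSO, and medians of 0.19 and -0.44. RPB2, of RNA polymerase II, rose by 0.36 with DMSO. RPO31, the largest subunit of RNA polymerase III, had 399 and 359 CPM under heat shock with 1-NA-PP1 against 292 and 237, and 362 and 345 with DMSO against 325 and 336. Only the first pair was called (0.52). ECM16, a helicase of small subunit assembly, had 404 and 403 CPM under heat shock with 1-NA-PP1 against 298 and 210.0 (log2 change 0.67, called), and 353 and 409 with DMSO against 401 and 412. KAP123, an importer of ribosomal proteins named here after its values were seen, had 376 and 342 CPM under heat shock with 1-NA-PP1 against 257 and 160.5, a log2 change of 0.78, and 318 and 387 with DMSO against 328 and 334. In RPO31, ECM16 and KAP123 replicate 2 of steady state with 1-NA-PP1 was the lowest of the 8 libraries. Without it their log2 changes with 1-NA-PP1 were 0.38, 0.44 and 0.48, all still called. Without that replicate 94 members were called under heat shock with 1-NA-PP1, 78 higher and 16 lower.

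Calls within close pairs of long genes were alike in some pairs and unlike in others, and differences within a pair were not tested. PYC2, overlapped and the paralog of PYC1, had 277 and 293 CPM under heat shock with 1-NA-PP1 against 272 and 227, and 326 and 300.5 with DMSO against 301 and 296, and was not called. Of the phosphoinositide phosphatases, INP53 rose by 0.48 with DMSO and INP52 (overlapped) fell by 0.30 on the log2 scale. With DMSO, TRK2 (overlapped) rose by 0.83 and TRK1 by 0.22, OSH2, an oxysterol-binding protein, by 0.70 where its paralog SWH1 was not called, and TCB1 (overlapped), a tether of the endoplasmic reticulum to the plasma membrane, by 0.60 where TCB2 was not called. RGC1, the paralog of ASK10, rose by 0.42 with DMSO. Among myosins, MYO3, of endocytic patches, rose by 0.58 with DMSO and was not called with 1-NA-PP1 (0.25). MYO5 and the mRNA carrier MYO4, both overlapped, were called in neither arm. GEA1 and GEA2, exchange factors of Arf, were called in neither arm.

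The 17 members with ACGCGT upstream had 2 called higher and 9 lower under heat shock with 1-NA-PP1 and 5 higher and 10 lower with DMSO, with medians of -0.23 and -0.31. The other 130 members had 74 higher and 11 lower with 1-NA-PP1 and 74 higher and 12 lower with DMSO. The motif was added after the falling members had been seen, so this contrast among members follows from the choice and is a description. Shorter features with the box, 176 in all, had 22 higher and 104 lower with 1-NA-PP1 and 26 higher and 103 lower with DMSO. Members with the box that rose with DMSO were YOR1, SPF1, ARO1, CHS3 and NUP116 (by 0.28). Of the 44 members with AGGGG, 29 were called higher and 3 lower in each arm, with medians of 0.34 with 1-NA-PP1 and 0.45 with DMSO; the 103 members without it had 47 higher and 17 lower with 1-NA-PP1 and 50 higher and 19 lower with DMSO. Shorter features with it, 1084 in all, had 315 higher and 274 lower with 1-NA-PP1 and 417 higher and 245 lower with DMSO. PDS5 and MSB1 are among the lower ones in both arms. None of the members is on either of the authors' lists of heat shock response genes, which hold 23 and 13 names. Beside 4928 features these lists are short, so 0 among 147 members does not set long transcripts apart. The threshold neighbours just outside had log2 changes with DMSO of 2.72 for DSE4, a cell separation gene, 0.11 for PSE1, -0.73 for SMC6 and -0.98 for CAF120.

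Inhibitor alone called no long transcript. At steady state 0 of 147 members passed for 1-NA-PP1 against DMSO (edgeR, smallest adjusted p = 0.0679), as did 0 of 4901 features, a share of 0%. At an unadjusted p under 0.05, 44 members were higher and 17 lower (41.5%), against 17.8% higher and 15% lower over all features (32.8%). The median was 0.09 in members and 0.05 over all features, and the libraries of both groups did not overlap in 121 members, against 72.7% of all features. DESeq2 called 28 members, 17 higher and 11 lower, against 999 of 4923 features. Without replicate 1 of steady state with 1-NA-PP1, 53 members were called, 33 higher and 20 lower, against 1712 of 4890 features. Both counts are near the share over all features. There were 0 calls without replicate 2 of that group, with a smallest adjusted p of 0.0522.

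YOR1, a plasma membrane pump that exports oligomycin and other drugs, had the smallest p. It had 1571 and 2979 CPM at steady state with 1-NA-PP1 against 1008 and 974 with DMSO, a log2 change of 1.20 (SE 0.244, edgeR adjusted p = 0.0679). Both inhibitor libraries lay above both solvent libraries, but far apart from each other, and the change was 0.66 without replicate 2 of the inhibitor group and 1.59 without replicate 1. ATG1 had 509.8 and 625 CPM with 1-NA-PP1 against 411 and 405 (0.48), and ECM21, an arrestin-like adaptor of ubiquitination that is overlapped, 420.0 and 488 against 374 and 339.8 (0.35). ECM16 had 298 and 210.0 CPM against 401 and 412 (-0.68). Each had an adjusted p of 0.0679. Without replicate 2 of the inhibitor group the changes were 0.32 for ATG1, 0.23 for ECM21 and -0.45 for ECM16, and without replicate 1 they were 0.62, 0.45 and -0.95. RPA135, of RNA polymerase I and overlapped, had 361 and 174 CPM with 1-NA-PP1 and 469 and 485 with DMSO.

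Under heat shock 0 of 147 members were called for 1-NA-PP1 against DMSO (edgeR, smallest adjusted p = 0.0703), against 16 of 4901 features or 0.326%, of which 0.204% were higher and 0.122% lower. At an unadjusted p under 0.05, 21 members were higher and 3 lower (16.3%), where all features gave 7.79% higher and 7.1% lower (14.9%), and 69 members had libraries that did not overlap, against 46% of all features. The median was 0.06 in members and 0.00 over all features. DESeq2 called 11 members, 9 higher and 2 lower, against 230 of 4923 features, and edgeR on the 4 heat shock libraries alone 0 higher and 2 lower, against 47 of 4859. Leaving out replicate 1 or replicate 2 of steady state with 1-NA-PP1, libraries of neither group compared, gave 9 calls each, 7 higher and 2 lower, against 232 of 4890 and 235 of 4889 features.

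Members with small p here included IRR1, MSH6, PDS5 and ASK10. IRR1 had 143 and 151 CPM under heat shock with 1-NA-PP1 against 115 and 111 with DMSO, a log2 change of 0.38 (SE 0.070, edgeR adjusted p = 0.0703). MSH6 had 247 and 261 CPM against 167 and 197 (0.48, adjusted p = 0.0762), PDS5 175 and 193 against 122 and 142 (0.47, adjusted p = 0.0848), and ASK10 1670.4 and 1714 against 1299 and 1379 (0.34, adjusted p = 0.0848). In these 4 the inhibitor libraries lay above the solvent libraries. Of the 17 members with ACGCGT upstream, 10 were higher and 1 lower at an unadjusted p under 0.05, with a median of 0.24, against 11 higher and 2 lower of the other 130, with a median of 0.05. Shorter features with the box had 35 higher and 7 lower of 176, with a median of 0.09. The motif was chosen from members that were low in the same heat shock libraries with DMSO, so these values are a description. The 12 members of DNA replication, repair and chromosome structure had a median of 0.23, and their 62 shorter fellows 0.11.

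**Figure D5:**
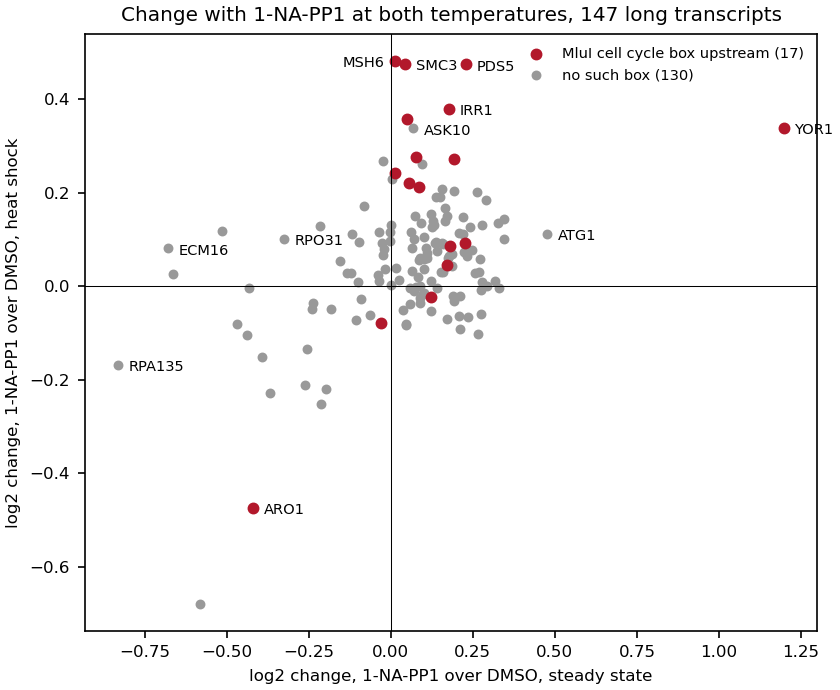
Log2 change with 1-NA-PP1 relative to DMSO under heat shock (vertical) and at steady state (horizontal) for the 147 long transcripts, red where ACGCGT lies in the 300 bases upstream. No point was called in either comparison; IRR1, MSH6, PDS5 and SMC3 lie at 0.38 to 0.48 under heat shock and 0.01 to 0.23 at steady state.

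These inhibitor comparisons share no library. The sign was the same in 98 of 147 members and in 3080 of 4901 features, with Pearson correlations of 0.42 and 0.38 across them. The difference between the heat shock changes, 1-NA-PP1 minus DMSO, was called for 0 of 147 members (edgeR, smallest adjusted p = 0.357), against 1 of 4901 features or 0.0204%. At an unadjusted p under 0.05 there were 10 members with a positive and 8 with a negative difference (12.2%), against 5.67% positive and 7.81% negative of all features (13.5%). The smallest p were those of MSH6 (difference 0.47), ECM16 (0.76), SMC3 (0.43), RIA1, a GTPase of large subunit maturation (0.34), and RPO31 (0.43). Without replicate 2 of steady state with 1-NA-PP1 these differences were 0.41, 0.53, 0.45, 0.24 and 0.28, and none was called. DESeq2 called 0, against 24 of 4923 features, and without replicate 1 of steady state with 1-NA-PP1 edgeR called 19, of which 11 were positive and 8 negative, against 848 of 4890 features.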

How the data were processed

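The authors deposited raw counts of reads per transcript on sacCer3. Trimming and mapping tools named in the submitters' processing notes include cutadapt 1.9.1 and STAR 2.5.2b, beside SAMtools; HTSeq and DESeq2 are named too. In the authors' normalised tables each count is divided by a factor of its library, a signal as deposited. A log2 fold change and an adjusted p-value stand in the authors' heat shock tables, per the file headers. Other deposited files (unit other) hold coordinates, lengths and gene lists. Members are features with a length of at least 3500. The members, the lists of genes by role and the named genes were chosen with earlier results of these data known. Named genes were, per comparison, the 8 largest called rises and falls whose groups do not overlap and whose log2 CPM averages 3 or more (the 5 smallest p where fewer were called), the most abundant and most changed per list, the longest, the most abundant and those beside the threshold; close pairs were added, and a gene that the rule names is not reported here.

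Counts were fitted in R 4.3.3 with edgeR 4.0.16 (TMM, filterByExpr, quasi-likelihood), 4 groups in 1 model of 8 libraries, two-sided, with Benjamini-Hochberg adjustment over 4901 features. CPM use TMM library sizes, CPM per kilobase divides by the deposited length, and SE is the log2 change over the square root of F. For 2 libraries against 2, the smallest two-sided p of an exact permutation test is 0.33. Alternatives included DESeq2 1.42.0, other scalings, other lengths, left-out libraries and the replicate number as a block. Whether replicate numbers pair the samples is not known, and the main fit did not use them. Symbols came from RefSeq by systematic name (4842 of 4928).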

Additional observations from a re-analysis of the deposited data

How the results depend on the processing

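Counts of called members stayed within 1.5 times of those reported under DESeq2's size factors, TMM factors from shorter features, no filter on low counts, and without overlapped or repeated members. For the settings below that change them by other means than membership or scaling, the cause was not tested. With 1-NA-PP1 against DMSO at steady state, DESeq2 called 28 members, and leaving out 1 library gave 0 to 53. Under heat shock DESeq2 called 11, the 2 groups alone 2, and leaving out 1 library gave 0 to 9. For the difference, leaving out 1 library gave 0 to 19. Heat shock calls ranged from 68 to 98 with 1-NA-PP1 and from 78 to 106 with DMSO when 1 library was left out. With a length of at least 3000 they were 217 and 228 of 345 members, at 4500 they were 11 and 12 of 17 with medians of 0.147 and 0.096, and with a RefSeq gene of 3500 bases 59 and 61 of 90. With the authors' factors they were 13 and 8.

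The authors' factors, joined across arms as described below, also turned the median of members to -0.17 at steady state and -0.51 under heat shock for 1-NA-PP1, and to -0.369 for heat shock with 1-NA-PP1 and -0.0799 with DMSO, where all features had medians of -0.21, -0.56, -0.63 and -0.32. On that scale heat shock with 1-NA-PP1 gave ECM16 -0.0032, RIA1 -0.078 and RPO31 -0.11. Heat shock with DMSO gave CHS3 -0.0348, NUP116 -0.0296, NUT1 -0.0567 and TRK1 -0.0799. 1-NA-PP1 under heat shock gave ASK10 -0.23, IRR1 -0.18, MSH6 -0.096 and PDS5 -0.11. The inhibitor values under heat shock, -0.51 among them, rest on a scale joined here and not on one the authors gave. The joined scale links their factors for each arm through the steady state libraries, with replicate 1 of steady state with DMSO set to 1. The authors also gave normalised counts of the heat shock libraries together. These were not used here, so the inhibitor values under heat shock on the authors' own scale are not known. The offset that follows length gave a median of -0.0035 for 1-NA-PP1 under heat shock and -0.0191 for heat shock with DMSO, and TRK1 -0.0226. The median of the difference was 0.03 without a filter, and -0.0486 to 0.065 with 1 library left out.

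Of 100 results on single genes, 85 were called. With the authors' factors, joined across arms as above, 60 lost their call and 11 turned. With the length offset these were 12 and 1, and at most 9 lost it when 1 library was left out. Same-numbered replicates had correlations of -0.33 to 0.30 in their deviations. With mixed signs and 2 libraries a group, these values cannot decide whether the numbers pair the samples. With the replicate block, 92 and 99 members were called for heat shock with 1-NA-PP1 and with DMSO and 0 in the other comparisons. Limits are 2 libraries a group, lower depth under heat shock, a counting strand not given, and log2 changes relative to the bulk of features, which do not measure total synthesis.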
